A study of Homo sapiens with 10 samples.

Results

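The DNA replication machinery is represented here by a list of 55 human genes, from origin recognition to nucleotide supply. They were looked up by symbol in the authors' gene table of HEK293 nuclei. Of these, 49 had a row of their own and 48 of those were tested, out of 16699 tested loci that carry 1 symbol and 241080 loci in all. RPA2 had a row but lay in a region above Cuffdiff's data limit, where its value is listed at 0 and was not read. The other 6, FEN1, GINS2, POLD1, POLD3, PRIM1 and TIPIN, appeared only in rows that name several genes and are described apart.

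HEK293 is a line of human embryonic kidney cells transformed with adenovirus DNA, grown attached. Its nuclei were split into a chromatin pellet extract (CPE, 3 samples) and a soluble nuclear extract (SNE, 3 samples), both without a drug label. There were also 2 CPE samples with DRB, a drug that blocks elongation by RNA polymerase II, and 2 mock CPE samples, whose values were not used here. All libraries were stranded total RNA of that 1 cell line, and the series' design text calls the fractionated nuclei biological replicates.

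Each origin of replication is bound by the origin recognition complex, on which CDC6 and CDT1 load the ring-shaped MCM helicase before S phase. The kinase of CDC7 and DBF4 then helps to add CDC45 and the GINS complex to that ring, and polymerases alpha, delta and epsilon copy the opened strands behind it. Many of these genes are transcribed in late G1 and S phase under E2F transcription factors, and HEK293 cells carry the adenoviral E1A protein, which binds the RB proteins that restrain E2F. A chromatin pellet holds RNA still attached to its template, including unfinished transcripts, while the soluble extract holds released RNA on its way to the cytoplasm.

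The promoters of these genes were searched for the letters TTTCGCGC, TTTGGCGC, TTTCCCGC and TTTGCCGC, an E2F-type motif, on both strands. RefSeq promoter entries of build GRCh38.p14, which span 250 bases before to 50 bases after a start, were found for 48 of the 55 genes. The motif was present in an entry of 25 of these 48 genes (52.1%), against 1090 of 27305 genes with an entry (3.99%). It was found for 19 of 33 members lower in CPE and 4 of 10 tested members without a call. The 250 bases before the start are shown for MCM6 and PCNA, which were lower in CPE, and for POLE and POLA1, the tested members with the highest ratios of CPE over SNE. Letters in capitals are motif matches, and the sequences were chosen after the values were seen.
MCM6, chr2:135876444-135876693, minus strand: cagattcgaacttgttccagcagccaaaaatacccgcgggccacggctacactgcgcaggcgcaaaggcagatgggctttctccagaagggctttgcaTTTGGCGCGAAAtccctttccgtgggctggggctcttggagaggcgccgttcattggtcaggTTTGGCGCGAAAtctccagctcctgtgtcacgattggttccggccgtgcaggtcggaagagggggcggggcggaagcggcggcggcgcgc
PCNA, chr20:5126623-5126872, minus strand: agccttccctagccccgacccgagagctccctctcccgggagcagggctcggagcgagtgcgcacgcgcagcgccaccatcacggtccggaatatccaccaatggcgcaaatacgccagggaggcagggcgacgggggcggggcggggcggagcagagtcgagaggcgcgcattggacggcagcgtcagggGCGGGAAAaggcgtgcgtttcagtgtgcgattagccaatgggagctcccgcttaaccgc
POLE, chr12:132687343-132687592, minus strand: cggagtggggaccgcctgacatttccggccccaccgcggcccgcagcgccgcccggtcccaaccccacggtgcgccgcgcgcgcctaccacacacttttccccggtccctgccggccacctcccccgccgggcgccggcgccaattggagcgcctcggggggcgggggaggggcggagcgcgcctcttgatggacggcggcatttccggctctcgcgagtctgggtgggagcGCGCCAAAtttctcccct
POLA1, chrX:24693668-24693917, plus strand: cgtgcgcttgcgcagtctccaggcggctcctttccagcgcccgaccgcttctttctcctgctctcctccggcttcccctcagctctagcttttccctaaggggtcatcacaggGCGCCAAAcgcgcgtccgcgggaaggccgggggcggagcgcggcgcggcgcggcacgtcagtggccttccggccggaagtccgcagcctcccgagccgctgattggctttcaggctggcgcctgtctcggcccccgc
MCM6 held 4 matches in 2 places, because its run TTTGGCGCGAAA reads as a match on both strands. Its matches began between 152 and 86 bases before the start, while those of PCNA, POLE and POLA1 began 59, 18 and 137 bases before it. Both genes lower in CPE and both genes without a call thus carry these letters, and a match describes letters in the window, not a site in use.

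For each gene the authors give 1 FPKM for CPE and 1 for SNE, a level scaled by the length of the transcript and the size of the library and taken over the samples of a fraction. No spread between samples and no depth could be computed, so differences were read from the authors' Cuffdiff q value, with a call at q of at most 0.05. FPKM is a share of a library, so RNA amounts per nucleus were not measured, and a level set by more cells or by more RNA per cell cannot be told apart. The nuclear RNA NEAT1 had an FPKM of 44.6 in CPE and 4.11 in SNE (log2 ratio 3.44). For the nuclear RNA MALAT1 the ratio was smaller, with an FPKM of 114.5 in CPE and 41.9 in SNE (log2 ratio 1.45). Of 10 genes listed as expressed in HEK293, LIN28B, CDH2, VIM and KRT8 were above 1 FPKM in both fractions. PAX2, LHX1, NEFL, NEFM and INA were below 1 in both, and KRT18 had no row of its own. Of 12 markers of other cell types 11 had a row, 0 of them reached an FPKM of 1 in CPE and only HBA1 did in SNE, at 1.79.

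Transcripts of the replication machinery were mostly lower in the chromatin pellet. Of the 48 tested members 35 were lower in CPE (72.9%), 0 were higher and 13 were not called. The share lower in CPE was 39.1% over all tested loci with 1 symbol, and 1.71% of those were higher. With an FPKM of at least 1 in either fraction it was 48.1%, with 1.49% higher, and over all tested loci, most of them unnamed, it was 4.3%, with 8.73% higher. Among tested loci with 1 symbol whose mean FPKM lay within the range of the members, it was 63.8%, and 0.683% were higher, which is the background nearest to the members' share. The members had a median log2 ratio (CPE over SNE) of -1.42 (interquartile range -1.77 to -1.02). The median was -1.25 over all tested loci with 1 symbol and -1.53 over those within the members' range of mean FPKM. The latter are not matched to the members in level, with a median FPKM of 15.6 in CPE and 36.7 in SNE. FPKM of the members spanned 4.36 to 192.7 in CPE (median 26.6) and 18.0 to 593.9 in SNE (median 65.1), and 47 of their 48 ratios were below 0. The zero of these ratios is set by the authors' scaling. Relative to the median of -1.25, 28 of the 48 members lay on the soluble side and 20 on the chromatin side.

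**Figure D1:**
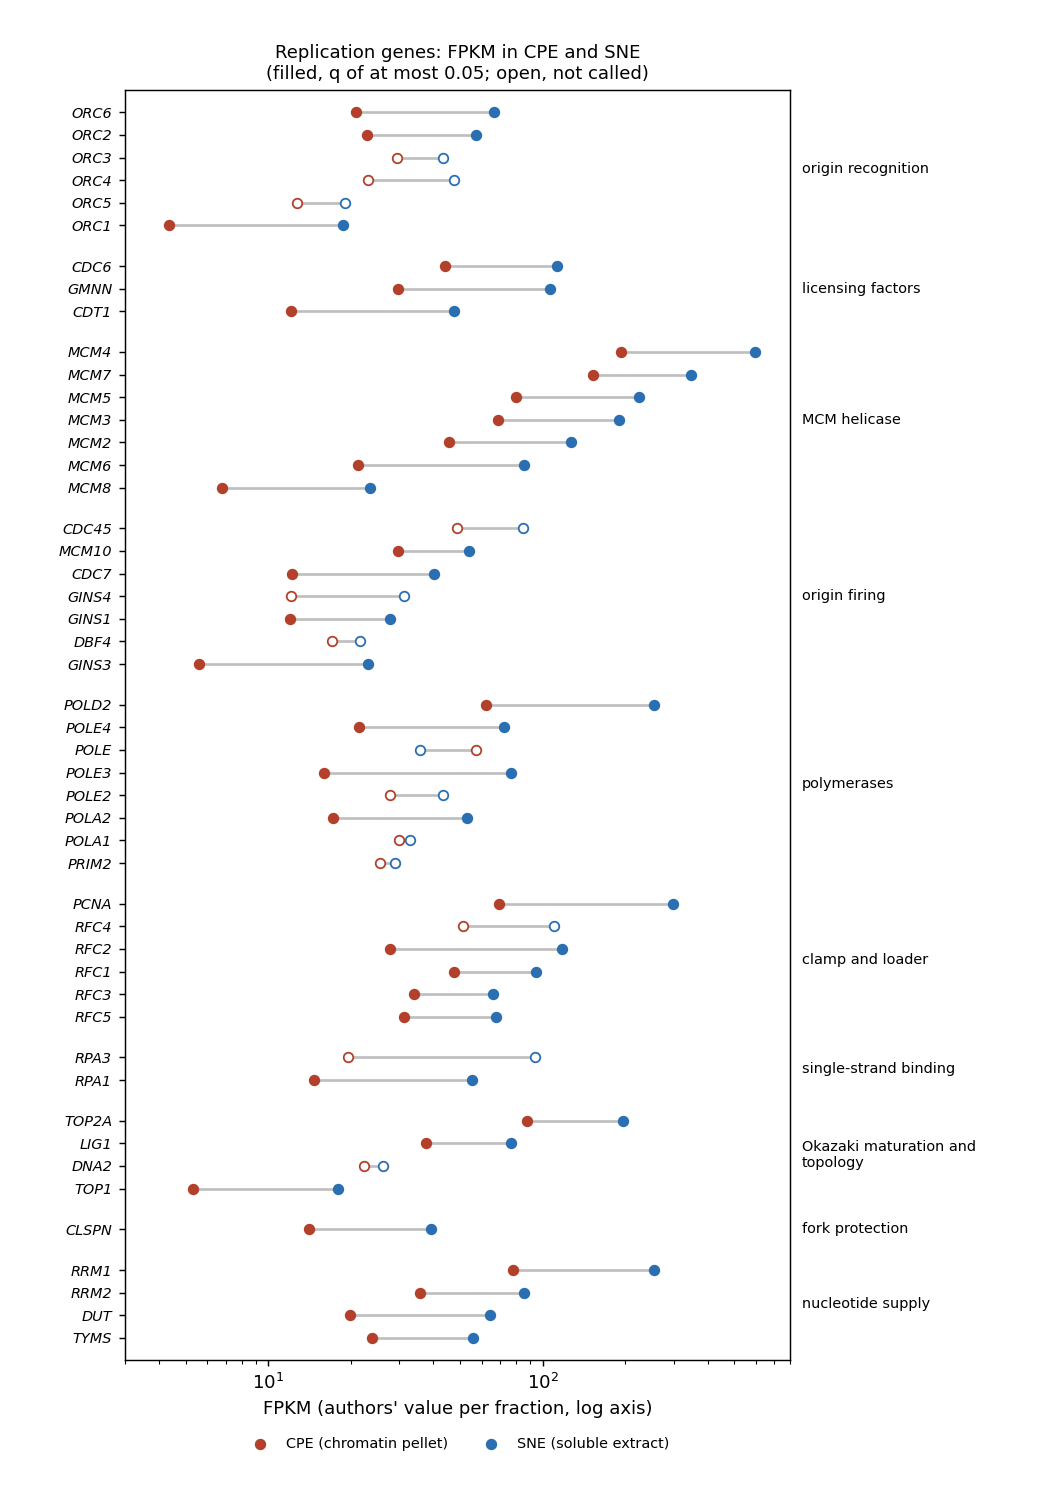
FPKM of the 48 tested replication genes in CPE (red) and SNE (blue) on a log axis, 1 authors' value per fraction with no error available, grouped by role and sorted by mean FPKM. MCM4 and MCM7 had the highest levels, and POLE was the member with its CPE value to the right of its SNE value.

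**Figure D2:**
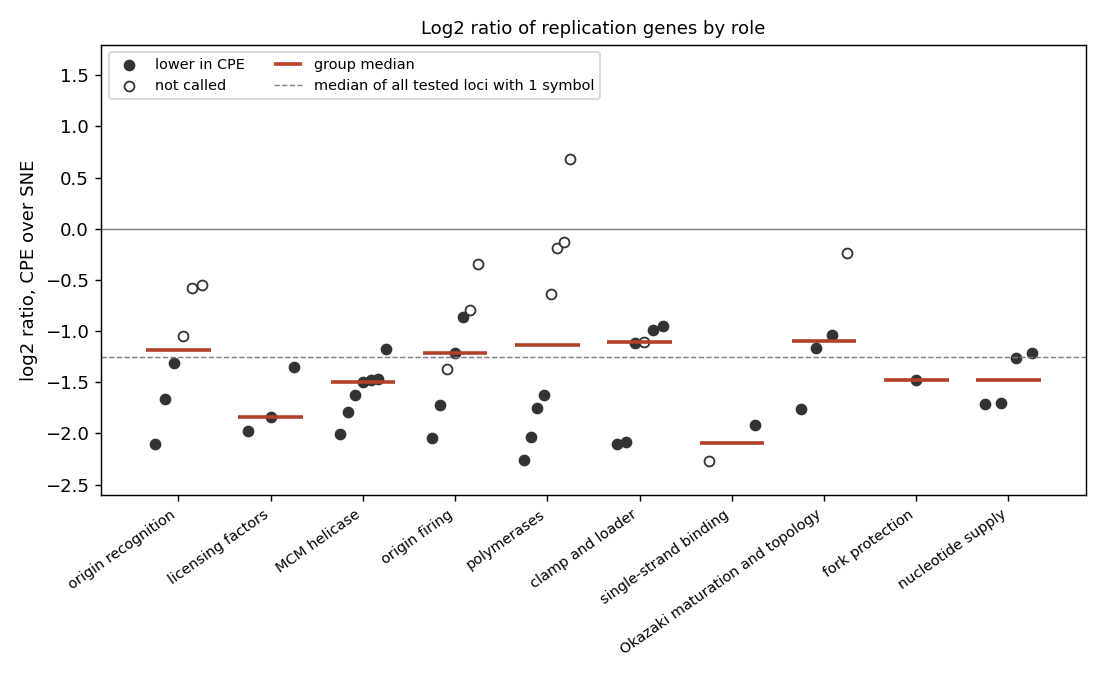
Log2 ratio of CPE over SNE for each replication gene by role, with filled points for genes lower in CPE at q of at most 0.05, open points for genes not called and bars for group medians. The dashed line is the median of all tested loci with 1 symbol, -1.25, and polymerase genes span the widest range of the roles shown, -2.26 to 0.69.

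The origin recognition complex divided into 3 subunit genes lower in CPE and 3 not called. ORC1, the subunit whose abundance changes through the cell cycle, had an FPKM of 4.36 in CPE and 18.8 in SNE, with a log2 ratio of -2.10 in the authors' deposited table (q = 0.000706). ORC6, the smallest subunit, had 20.9 FPKM in CPE and 66.2 FPKM in SNE (log2 ratio -1.66, q = 0.000706 in the authors' deposited table). ORC2 had 22.9 FPKM in CPE and 57.0 FPKM in SNE (log2 ratio -1.31, q = 0.0375 in the authors' deposited table). These 3 transcripts were thus 4.30-fold, 3.16-fold and 2.48-fold lower in CPE. ORC3 had 29.5 FPKM in CPE and 43.3 FPKM in SNE, and ORC5 had 12.7 FPKM in CPE and 18.98 FPKM in SNE, without a call (q = 0.414 and 0.213 in the authors' deposited table). ORC4 had 23.0 FPKM in CPE and 47.6 FPKM in SNE and had no call although its log2 ratio was -1.05 (q = 0.387 in the authors' deposited table). Levels within the complex ran from 4.36 (ORC1) to 29.5 FPKM (ORC3) in CPE and from 18.8 (ORC1) to 66.2 FPKM (ORC6) in SNE.

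All 3 licensing factor genes were lower in CPE. CDC6, the ATPase that joins the origin complex to load MCM, had 44.2 FPKM in CPE and 112.4 FPKM in SNE (log2 ratio -1.35). CDT1, its partner in loading, had 12.1 FPKM in CPE and 47.5 FPKM in SNE (log2 ratio -1.97). GMNN, which encodes the CDT1 inhibitor geminin, had 29.7 FPKM in CPE and 106.3 FPKM in SNE (log2 ratio -1.84). Each was at q = 0.000706, the smallest q in the authors' deposited table, which 25 of the members share and which cannot rank them.

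All 7 genes of the MCM helicase group were lower in CPE, with log2 ratios from -2.01 to -1.18. MCM4, the most abundant member, had 192.7 FPKM in CPE and 593.9 FPKM in SNE (log2 ratio -1.62, q = 0.00134 in the authors' deposited table). MCM7, whose introns carry a microRNA cluster, had 153.0 FPKM in CPE and 346.0 FPKM in SNE (log2 ratio -1.18, q = 0.000706 in the authors' deposited table). MCM5, MCM3 and MCM2 had 79.6, 68.9 and 45.7 FPKM in CPE and 225.3, 190.2 and 127.0 FPKM in SNE. By the authors' deposited table their log2 ratios, -1.50, -1.46 and -1.47, lay within 0.04 of one another. MCM6, at 21.3 FPKM in CPE and 85.4 FPKM in SNE, had the lowest ratio of the ring (log2 ratio -2.01, q = 0.000706 in the authors' deposited table). The 6 subunits of the ring, which are present in equal number in the protein complex, stood in the same order of FPKM in both fractions, from MCM4 down to MCM6. MCM8, a helicase mainly known for recombination, had 6.81 FPKM in CPE and 23.6 FPKM in SNE (log2 ratio -1.79, q = 0.000706 in the authors' deposited table). Relative to the median of all loci with 1 symbol, the ratio of MCM7 lay 0.076 on the chromatin side, and the other 6 lay on the soluble side.

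Of the 7 tested origin firing genes, 4 were lower in CPE and 3 were not called. CDC7, the catalytic kinase subunit, had 12.2 FPKM in CPE and 40.0 FPKM in SNE (log2 ratio -1.72, q = 0.000706 in the authors' deposited table). DBF4, its activating subunit, had 17.0 FPKM in CPE and 21.7 FPKM in SNE without a call (log2 ratio -0.35, q = 0.497 in the authors' deposited table). The kinase subunits thus had similar levels in CPE, 12.2 and 17.0 FPKM, and differed more in SNE, at 40.0 and 21.7 FPKM, a contrast for which no test was available. GINS3 had 5.59 FPKM in CPE and 23.0 FPKM in SNE, and GINS1 had 12.0 FPKM in CPE and 27.8 FPKM in SNE (log2 ratios -2.04 and -1.22, q = 0.000706 for both in the authors' deposited table). GINS4 had 12.1 FPKM in CPE and 31.3 FPKM in SNE and missed the call (log2 ratio -1.37, q = 0.117 in the authors' deposited table). MCM10, which acts when the helicase is switched on, had 29.8 FPKM in CPE and 54.0 FPKM in SNE and had the smallest change of any called member (1.81-fold lower in CPE, q = 0.00853 in the authors' deposited table). CDC45 had 48.9 FPKM in CPE and 84.9 FPKM in SNE without a call (log2 ratio -0.80, q = 0.193 in the authors' deposited table).

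Among the member roles the polymerase genes had the widest range of ratios, and subunits of the same enzyme lay far apart. In polymerase epsilon, the leading-strand enzyme, the catalytic subunit gene POLE had 57.3 FPKM in CPE and 35.6 FPKM in SNE, the only ratio above 0 among the tested members (log2 ratio 0.69, q = 0.358 in the authors' deposited table, not called). The POLE2 subunit gene had 27.8 FPKM in CPE and 43.3 FPKM in SNE (log2 ratio -0.64, q = 0.283 in the authors' deposited table). The small histone-fold subunits were lower in CPE: POLE3 had 16.0 FPKM in CPE and 76.4 FPKM in SNE, and POLE4 had 21.4 FPKM in CPE and 72.3 FPKM in SNE. Their log2 ratios were -2.26 and -1.75 (q = 0.000706 for both in the authors' deposited table). POLE thus stood at the 89.0th percentile of all loci with 1 symbol and an FPKM of at least 1 in either fraction, and POLE3 at the 14.0th percentile. In the polymerase alpha and primase complex, which lays down primers, POLA1 had 29.9 FPKM in CPE and 32.7 FPKM in SNE, and PRIM2 had 25.5 FPKM in CPE and 28.99 FPKM in SNE. Neither was called (log2 ratios -0.13 and -0.19, q = 0.661 and 0.543 in the authors' deposited table). POLA2, the accessory subunit of the same complex, had 17.2 FPKM in CPE and 53.1 FPKM in SNE and was 3.09-fold lower in CPE (q = 0.000706 in the authors' deposited table). POLD2, an accessory subunit of the lagging-strand polymerase delta, had 62.2 FPKM in CPE and 254.8 FPKM in SNE and was 4.10-fold lower in CPE (q = 0.000706 in the authors' deposited table). The polymerase catalytic subunits with a row of their own, POLE and POLA1, were thus among the uncalled members, as were PRIM2 and POLE2. The other 4 polymerase genes with a row of their own were lower in CPE. Rows that hold POLD1 and PRIM1 beside other genes were also lower in CPE, and the row with POLD3 was not called. No test compared these subunits with each other.

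Of the sliding clamp and its loader, 5 of 6 genes were lower in CPE. PCNA, the clamp that tethers polymerases to DNA, had 69.6 FPKM in CPE and 298.8 FPKM in SNE and was 4.29-fold lower in CPE (log2 ratio -2.10, q = 0.000706 in the authors' deposited table). RFC2, a small loader subunit, had 27.8 FPKM in CPE and 117.3 FPKM in SNE (log2 ratio -2.08, q = 0.000706 in the authors' deposited table). RFC1, the large loader subunit, had 47.6 FPKM in CPE and 94.5 FPKM in SNE (log2 ratio -0.99, q = 0.00134 in the authors' deposited table). RFC3 had 34.0 FPKM in CPE and 65.7 FPKM in SNE, and RFC5 had 31.2 FPKM in CPE and 67.5 FPKM in SNE (log2 ratios -0.95 and -1.12, q = 0.0358 and 0.00194 in the authors' deposited table). RFC4 had 51.2 FPKM in CPE and 110.1 FPKM in SNE without a call (log2 ratio -1.10, q = 0.469 in the authors' deposited table). The 4 loader subunits other than RFC2 had ratios between -1.12 and -0.95, all above the median of loci with 1 symbol, whether called or not. RFC4 shares its region with EIF4A2, a host of small nucleolar RNAs, and an unnamed locus there is listed at 473.9 FPKM in CPE and at 0 in SNE (q = 0.491 in the authors' deposited table); its part in the test of RFC4 was not tested.

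Of RPA, which coats exposed single strands, RPA1 was lower in CPE. It had 14.6 FPKM in CPE and 55.3 FPKM in SNE (log2 ratio -1.92, q = 0.000706 in the authors' deposited table). RPA3 had 19.5 FPKM in CPE and 94.0 FPKM in SNE, the lowest ratio of all tested members, and had no call (log2 ratio -2.27, q = 0.0831 in the authors' deposited table). Its region of 459.1 kb holds 118 tested unnamed loci, the most of any member.

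Among genes for Okazaki fragment maturation and DNA topology, 3 of 4 were lower in CPE. TOP2A, which unlinks daughter duplexes, had 87.8 FPKM in CPE and 196.8 FPKM in SNE (log2 ratio -1.16, q = 0.000706 in the authors' deposited table). LIG1, the ligase that seals fragments, had 37.6 FPKM in CPE and 77.0 FPKM in SNE (log2 ratio -1.03, q = 0.000706 in the authors' deposited table). TOP1, which relaxes supercoils, had 5.31 FPKM in CPE and 18.0 FPKM in SNE (log2 ratio -1.76, q = 0.00307 in the authors' deposited table). DNA2, a nuclease and helicase that trims long flaps, had 22.4 FPKM in CPE and 26.3 FPKM in SNE without a call (log2 ratio -0.23, q = 0.531 in the authors' deposited table). CLSPN, which encodes the fork protection and checkpoint mediator claspin, had 14.1 FPKM in CPE and 39.2 FPKM in SNE (log2 ratio -1.48, q = 0.00251 in the authors' deposited table).

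All 4 genes of nucleotide supply were lower in CPE. RRM1, the large subunit of ribonucleotide reductase, had 77.8 FPKM in CPE and 255.4 FPKM in SNE (log2 ratio -1.71, q = 0.000706 in the authors' deposited table). RRM2, the small subunit made mainly in S phase, had 35.8 FPKM in CPE and 85.6 FPKM in SNE (log2 ratio -1.26, q = 0.000706 in the authors' deposited table). DUT, which hydrolyses dUTP, had 19.8 FPKM in CPE and 64.5 FPKM in SNE (log2 ratio -1.70, q = 0.0281 in the authors' deposited table). TYMS, which makes thymidylate, had 23.9 FPKM in CPE and 55.6 FPKM in SNE and lay close to the threshold (log2 ratio -1.22, q = 0.0483 in the authors' deposited table). GENCODE 29 names 8 pseudogenes after DUT, 3 each after RRM2 and PCNA, 2 after TYMS and 1 each after DBF4, POLD2, RFC3 and RFC5, so the assignment of reads to these genes is uncertain.

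The rows that name several genes gave values for the remaining members without separating them from their neighbours. The rows with FEN1, GINS2, PRIM1, POLD1 and TIPIN were lower in CPE, each at q = 0.000706 by the authors' deposited table, and their log2 ratios were -2.02, -2.07, -2.15, -1.51 and -1.46. The row with PRIM1 also holds NACA, an abundant gene, and had 204.5 FPKM in CPE and 908.3 FPKM in SNE. The row with the flap nuclease gene FEN1 also holds FADS2 and had 77.8 FPKM in CPE and 315.0 FPKM in SNE. The row with POLD3, a polymerase delta subunit, had 13.0 FPKM in CPE and 21.7 FPKM in SNE and had no call (q = 0.185 in the authors' deposited table). With these rows counted, 40 of 54 were lower in CPE.

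The 13 uncalled members were not simply those with the smallest ratios. Their log2 ratios ran from -2.27 to 0.69 (median -0.58), while those of the 35 called members ran from -2.26 to -0.86 (median -1.63). Median FPKM was 25.5 in CPE and 35.6 in SNE for uncalled members, and 27.8 in CPE and 72.3 in SNE for called ones. The call that splits the members is made from these same values, so the gap between the medians is no separate result. RPA3, GINS4, RFC4 and ORC4 had ratios beyond those of some called members. POLE, POLA1, PRIM2, DNA2 and DBF4 had the 5 highest ratios of all members.

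Gene span was a property in which the members differed along with their ratios. Spans from GENCODE 29 were found for all 48 tested members, from 3.44 kb (POLE3) to 332.0 kb (PRIM2). Members of longer span tended to have a higher ratio, with a Spearman correlation of 0.41 and a Pearson correlation of 0.49 with log10 span (48 genes from the same libraries, which are not replicates, given as a description). Over 9050 protein-coding loci with 1 symbol and an FPKM of at least 1 in either fraction the Spearman correlation was also 0.41. In the 16 members of shortest span, 3.44 to 19.5 kb, the median ratio was -1.64 and 14 were lower in CPE. In the 16 of middle span, 20.9 to 49.6 kb, it was -1.49 and 13 were lower. In the 16 of longest span, 49.8 to 332.0 kb, it was -1.01 and 8 were lower. Over loci with 1 symbol within the members' range of mean FPKM, of any span, 63.8% were lower. That share was not computed by span, so the counts per span group mark no trait of the members. Median span was 63.6 kb over uncalled and 24.9 kb over called members. RPA3 (82.1 kb), RPA1 (70.4 kb) and TOP1 (95.7 kb) were long genes with low ratios of -2.27, -1.92 and -1.76. GINS3 also counted as long, at 111.1 kb, with a ratio of -2.04. Its longest GENCODE transcript has 3.20 kb in 1 exon, so the span comes from other models. Whether it is the span of its mRNA was not checked. With the longest transcript in place of the span, the Spearman correlation was 0.27 over members and 0.41 over the 9050 loci. With the number of exons of that transcript it was 0.45 over members. That transcript was picked by its summed exon length and may not be the main mRNA of a gene.

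**Figure D3:**
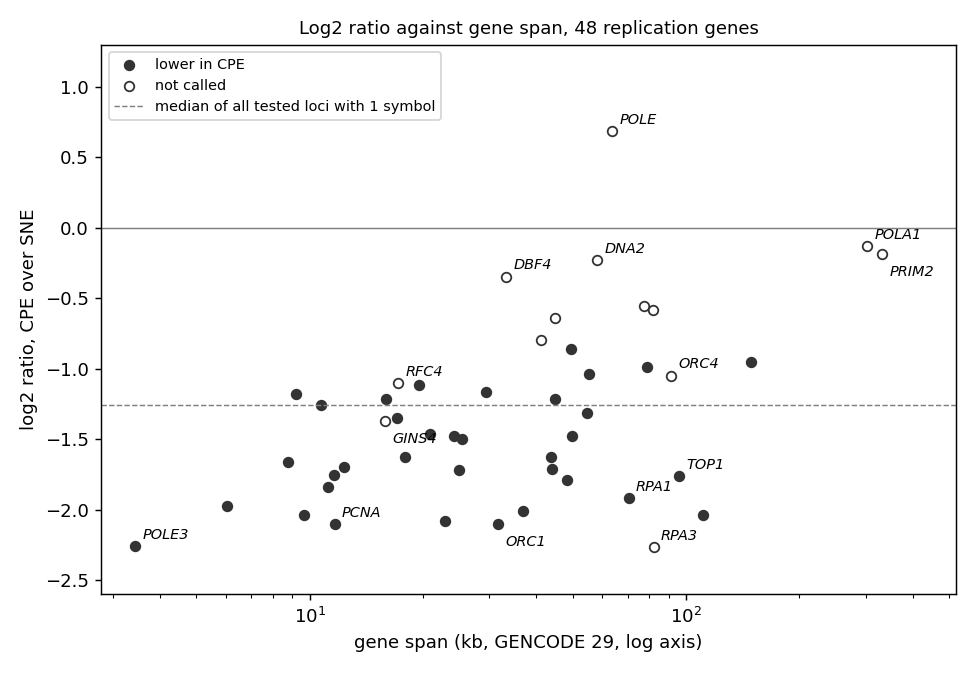
Log2 ratio of CPE over SNE against gene span in kb (log axis) for the 48 replication genes, filled where lower in CPE at q of at most 0.05 and open where not called. POLA1 and PRIM2, the longest genes, sit near 0 at -0.13 and -0.19, and POLE3, the shortest, sits at -2.26.

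Each member's region also held loci without a symbol, and like unnamed loci elsewhere most of these had a ratio above 0. Over the 48 regions there were 910 tested unnamed loci, of which 899 (98.8%) had a ratio above 0, with a median of 3.48. Unnamed loci of the whole table did much the same, with 97.3% above 0 and a median of 3.33. In the members' regions 55 were higher in CPE (6.04%) and 0 were lower, while over all tested unnamed loci 9.45% were higher and 0.63% were lower. All 48 members had a ratio below the median of the unnamed loci of their own region. The medians of all tested loci with 1 symbol (-1.25) and of all unnamed loci (3.33) stand in the same order. The comparison was not made for other named genes, so it marks no trait of the members. In 35 regions at least 1 unnamed locus was higher in CPE. The sources used here do not give the origin of these loci or their place within a region, and whether they are parts of introns was not tested. Of 9 members that are the only named locus of their region, 6 had such a locus, and 7 of 58 unnamed loci there were higher in CPE. POLA2 lies alone in its region (hg19 chromosome 11, 65029233 to 65076679). The POLA2 row had 17.2 FPKM in CPE and 53.1 FPKM in SNE, while the most abundant unnamed locus beside it had 9.65 FPKM in CPE and 2.02 FPKM in SNE (log2 ratio 2.26, q = 0.000706 in the authors' deposited table). For CDC7 the corresponding locus had 14.7 FPKM in CPE, above the 12.2 FPKM of CDC7 itself, and 2.25 FPKM in SNE (log2 ratio 2.70, q = 0.000706 in the authors' deposited table). For POLE it had 15.1 FPKM in CPE and 2.92 FPKM in SNE (log2 ratio 2.37, q = 0.000706 in the authors' deposited table). The regions of CDC7 and POLE each hold 2 named loci, so an unnamed locus there cannot be tied to either. The loci at POLA2, CDC7 and POLE are called examples, and in many other regions the most abundant unnamed locus was not called. At GINS3 and GINS4 that locus had a ratio below 0, without a call (log2 ratios -1.55 and -1.24, q = 0.267 and 0.0715 in the authors' deposited table). The most abundant unnamed locus beside a helicase gene had 52.0 FPKM in CPE and 12.6 FPKM in SNE, at MCM3, without a call (q = 0.557 in the authors' deposited table).

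**Figure D4:**
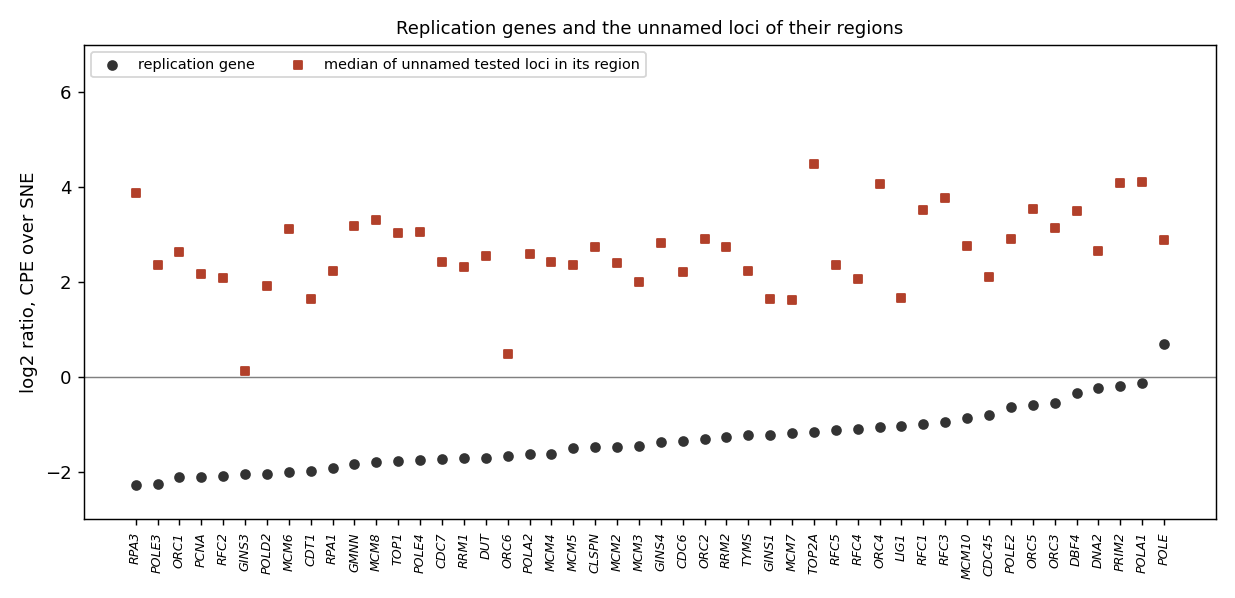
Log2 ratio of CPE over SNE for each of the 48 replication genes (black) and the median over tested unnamed loci of its region (red), sorted by the gene's ratio. Every gene lies below the median of its region. Medians range from 0.13 at GINS3, over 2 unnamed loci, to 4.50 at TOP2A, where it is the value of 1 unnamed locus without a call. The medians of all tested loci with 1 symbol (-1.25) and of all unnamed loci (3.33) stand in the same order.

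Isoform values could be used for 5 members, ORC5, MCM4, GINS4, POLA1 and POLE3. In each of them the isoform FPKM sum to the gene value within 0.1% in both fractions. The other tested members had no isoforms listed under the identifier of their gene row. Over all tested isoforms 11.0% were lower in CPE and 1.49% were higher. For MCM4, 1 of 10 tested isoforms was called, with 16.6 FPKM in CPE and 90.2 FPKM in SNE (log2 ratio -2.44, q = 0.000698 in the authors' deposited table). The leading MCM4 isoform, at 44.2 FPKM in CPE and 163.85 FPKM in SNE, was not tested by the authors. Nor was the next, at 38.7 FPKM in CPE and 129.7 FPKM in SNE. Of the 9 MCM4 isoforms with an FPKM of at least 1 in both fractions, 6 had a ratio below 0 and 3 above it. The leading ORC5 isoform had 5.75 FPKM in CPE and 16.9 FPKM in SNE and was lower in CPE (log2 ratio -1.55, q = 0.0164 in the authors' deposited table), although the ORC5 gene row was not called. A second ORC5 isoform had 3.45 FPKM in CPE and 1.13 FPKM in SNE (log2 ratio 1.62, q = 0.178 in the authors' deposited table). POLA1 divided similarly: its leading isoform had 14.5 FPKM in CPE and 24.04 FPKM in SNE, and the next had 6.02 FPKM in CPE and 3.39 FPKM in SNE, neither called (q = 0.245 and 0.684 in the authors' deposited table). The leading POLE3 isoform had 14.3 FPKM in CPE and 66.4 FPKM in SNE and was not tested by the authors. For GINS4, all 6 isoforms above the minimum in both fractions had ratios below 0, and 0 of its 5 tested isoforms were called in Cuffdiff's test. The isoforms carry no transcript names, so their exon content was not read.

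Other genes of replication control were listed as well. Of 77 listed genes, 61 had a tested row with 1 symbol (62 rows, since RBL1 has 2), 3 were in untested rows and 13 were only in rows of several genes. Of the 62 rows 32 were lower in CPE (51.6%), 0 were higher and 30 were not called, with a median log2 ratio of -1.43. That share lies between the 48.1% lower among loci with 1 symbol at an FPKM of at least 1 and the 63.8% among those within the members' range of mean FPKM. The list had a median FPKM of 14.6 in CPE and 29.5 in SNE. Those medians were 5.44 and 12.4 in the first of these backgrounds and 15.6 and 36.7 in the second. All 9 further genes listed under nucleotide supply were lower in CPE, among them IMPDH2, the enzyme of guanine nucleotide synthesis, and DCTPP1, a dCTP pyrophosphatase. The heading is broad and also takes in UNG, a DNA repair glycosylase that removes uracil, and SAMHD1, which breaks down deoxynucleotides. IMPDH2 had 61.6 FPKM in CPE and 197.6 FPKM in SNE, and DCTPP1 had 19.8 FPKM in CPE and 108.4 FPKM in SNE (log2 ratios -1.68 and -2.45 in the authors' deposited table). Together with the 4 nucleotide genes above, 13 of 13 genes listed under this broad heading and tested in a row of their own were lower in CPE. The share was 63.8% among loci with 1 symbol whose mean FPKM lay within the range of the members. Both lists were chosen with earlier results known, and whether this count differs from that share was not tested.

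Of 12 rows of E2F and RB regulators 8 were lower in CPE and 4 were not called. TFDP1, the E2F dimer partner, had 46.7 FPKM in CPE and 198.3 FPKM in SNE, and RB1 had 15.0 FPKM in CPE and 37.5 FPKM in SNE (log2 ratios -2.09 and -1.32 in the authors' deposited table). Of 9 genes of replication-coupled chromatin assembly 4 were lower in CPE. They included SUPT16H, a FACT subunit, and SLBP, which binds histone mRNA, at 34.8 and 18.7 FPKM in CPE and 97.8 and 90.8 FPKM in SNE. ASF1B, a histone chaperone, had the lowest ratio of the list at 0.25 FPKM in CPE and 2.40 FPKM in SNE, without a call (q = 0.210 in the authors' deposited table). Of 10 firing regulators 5 were lower in CPE, among them MCMBP, which binds MCM proteins (27.6 FPKM in CPE and 82.3 FPKM in SNE). TOPBP1, a firing and checkpoint scaffold, had 50.3 FPKM in CPE and 70.9 FPKM in SNE (q = 0.338 in the authors' deposited table). Of 4 alternative loader genes 2 were lower in CPE. CHTF8 had 16.2 FPKM in CPE and 58.8 FPKM in SNE (q = 0.0460 in the authors' deposited table), and CHTF18 had 26.8 FPKM in CPE and 34.8 FPKM in SNE without a call (q = 0.456 in the authors' deposited table).

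Of 9 fork and checkpoint genes 2 were lower in CPE, at a median FPKM of 8.19 in CPE and 16.7 in SNE. Of 9 other polymerase, ribonuclease H and topoisomerase genes 2 were lower in CPE, at a median FPKM of 28.4 in CPE and 32.1 in SNE. Whether these shares differ from those of other genes was not tested. RAD1, a subunit of the checkpoint clamp, had 18.7 FPKM in CPE and 41.7 FPKM in SNE (q = 0.126 in the authors' deposited table). RNASEH2B, a subunit of ribonuclease H2, had 153.1 FPKM in CPE and 278.8 FPKM in SNE (q = 0.551 in the authors' deposited table). The 3 highest ratios of the list, all without a call, belonged to REV3L and REV1 of translesion synthesis and to the fork repair gene MMS22L. REV3L had 65.1 FPKM in CPE and 32.1 FPKM in SNE, REV1 had 31.3 FPKM in CPE and 20.7 FPKM in SNE, and MMS22L had 66.7 FPKM in CPE and 48.9 FPKM in SNE. Their log2 ratios were 1.02, 0.59 and 0.45 (q = 0.465, 0.493 and 0.493 in the authors' deposited table).

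**Figure D5:**
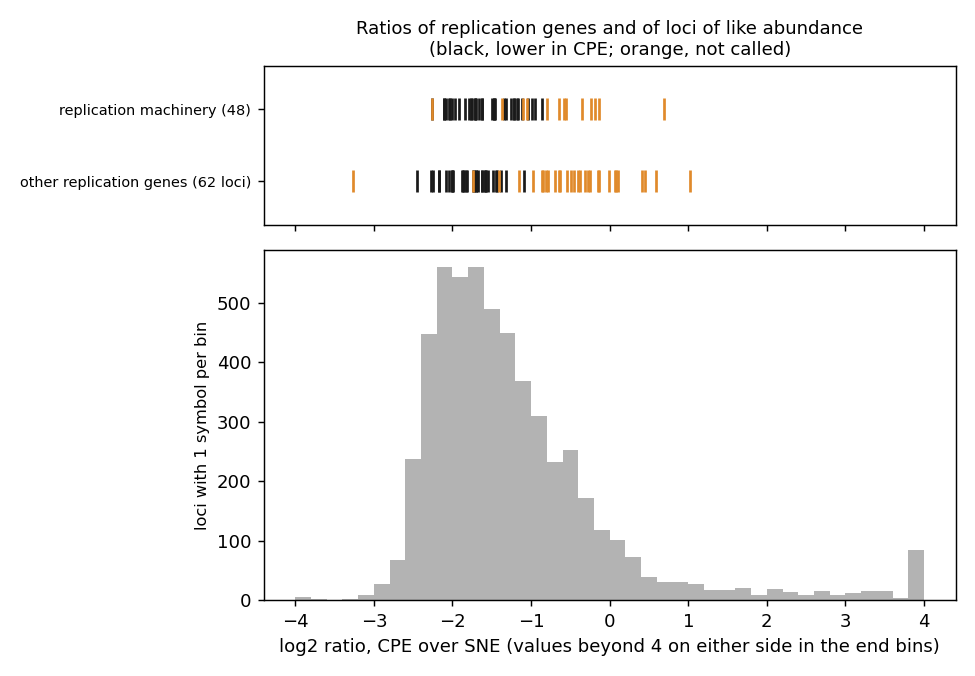
Log2 ratios of CPE over SNE of the 48 replication machinery genes and of 62 loci of other replication genes (ticks, black where lower in CPE and orange where not called), above the histogram of all tested loci with 1 symbol whose mean FPKM lies in the range of the members. The ticks of the members, with a median of -1.42, lie within the bulk of that histogram, whose median is -1.53.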

How the data were processed

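Stranded total RNA of CPE and SNE (3 samples each) was processed by the authors with TopHat2, an aligner, and Cuffdiff on hg19, per the submitters' processing notes. The sources used here give no version, annotation, strand setting or scaling. FPKM values, log2 ratios (CPE over SNE), p-values and q-values are those the authors deposited, per the file headers. The tables have no per-sample values, so depth was unknown and no SD, interval or test across samples was computed. Isoform values were used for members with isoforms listed under the identifier of their gene row, and all of these summed to the gene value.

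Loci with status OK count as tested (192931 loci). A call was q of at most 0.05, which matched the table's own mark with 0 differences. Members and lists were chosen with earlier results of these data known. The members named with full values are, for each role, the 3 of highest mean FPKM, the extremes of ratio and all uncalled genes. MCM2, MCM3, MCM8, GINS1, POLA2, RFC1 and RFC5 were added after their values were seen. Of the other list they are the 2 of highest mean FPKM per subgroup and the 3 highest and 3 lowest ratios at an FPKM of at least 1. Gene spans came from GENCODE 29 by symbol, with no coordinates used. The counting code was tested on simulated data. Python 3.11.15, pandas 2.3.3, numpy 2.4.6, scipy 1.17.1 and matplotlib 3.10.9 were used. Region starts count from 1. Alternatives were a stricter q, fold and FPKM minimums, centring, re-adjusted p-values, pseudocounts of 0.1 and 1, and rows of several genes. The background within the members' range of mean FPKM was chosen after seeing the data.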

Additional observations from a re-analysis of the deposited data

How the results depend on the processing

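The count of members lower in CPE was 35 and ranged from 26 to 40 over a q of at most 0.01, a log2 ratio of at least 1 in size, an FPKM minimum of 1, Benjamini-Hochberg adjustment over loci with 1 symbol, rows of several genes and centring. Under that adjustment RPA3 and GINS4 were called too, with log2 ratios of -2.27 and -1.37. Centring subtracts the median of loci with 1 symbol, -1.25, and gives signs of called loci rather than calls. The members' median then became -0.16, and 9 called members took a ratio on the chromatin side: MCM10 (0.39), RFC3 (0.30), RFC1 (0.27), LIG1 (0.22), RFC5 (0.14), TOP2A (0.0896), MCM7 (0.076), GINS1 (0.037) and TYMS (0.036). So did 1 called row of the other replication genes and 1183 called loci with 1 symbol, of which 286 were higher in CPE before centring and 188 at an FPKM of at least 1. These shifts follow from the construction of the settings. The Spearman correlation of ratio with length was 0.41 with gene span and 0.27 with longest transcript length; the cause was not tested. With a pseudocount of 1 the members' median ratio was -1.37 in place of -1.42. No paired analysis was possible because the tables hold no per-sample values, and for the same reason no sample could be left out.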
